A study of Mus musculus with 4 samples.

Results

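The Hedgehog pathway genes described here are 9 genes of mouse liver. They comprise the secreted ligands Shh, Ihh and Dhh, the receptors Ptch1 and Smo, the transcription factors Gli1, Gli2 and Gli3, and the decoy receptor Hhip. They were taken by symbol, with no cutoff on their values, although earlier results of these data were known when the genes were chosen. The rows are those that the platform annotation ties to exactly 1 gene, and all 9 genes were found among the 22180 tested. Each had 1 such row, so no choice between rows was needed. Wild-type male C57BL/6J mice ate either food lacking methionine and choline (the MCD diet) or a normal diet from 6 weeks of age for 20 weeks, and liver RNA was hybridised to gene-level arrays. MCD diet and normal diet livers were represented by 2 arrays each, 4 arrays in all. The labels call the samples mice with a number but do not say if any RNA was pooled, so each p-value reflects only the variation among these 4 samples, which may be technical. The MCD diet is a widely used model of fatty liver with inflammation and fibrosis, and the comparison asks which transcripts it changes.

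Hedgehog ligands bind Ptch1, which otherwise holds the membrane protein Smo inactive. Released Smo acts at the primary cilium and lets the GLI factors enter the nucleus as activators, and Ptch1, Gli1 and Hhip are themselves classical targets of GLI. Healthy adult liver is known for low Hedgehog activity, and injured hepatocytes, bile duct cells and stellate cells have been linked to the pathway in liver disease.

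The arrays had median log2 signals of 2.57 and 2.63 in MCD diet livers, against 2.63 and 2.65 in normal diet livers, and no measure of background or of detection was used here. Signals of different genes come from different probes and are not compared as levels. A position among all genes is given only to show how near the dim end a row lies. The tissue label was checked with 10 hepatocyte markers, of which 10 lay above the median signal of all genes. Albumin (Alb) read 11.99 and 11.93 in MCD diet livers, against 12.04 and 11.96 in normal diet livers. Across all genes, 2214 of 22180 passed the test (9.98%), with MCD diet livers higher for 1412 (6.37%) and lower for 802 (3.62%). The share was 1.84% among the dimmest 50% of genes and 18.1% among the brightest 50%.

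Among the Hedgehog genes, Hhip was lower in MCD diet livers and the other 8 did not pass the test. That is 1 of 9 members called (11.1%), beside 9.98% of all genes, so the count is close to the background. Their median log2 difference was 0.01, against -0.03 over all genes, with 5 members higher and 4 lower on average in MCD diet livers. For 4 of the 9 members the values of one diet all lay on one side of the other's, as they did for 54.2% of all genes. Of the members, 6 lay below the median signal of all genes, namely Shh, Dhh, Gli2, Gli3 and, narrowly, Gli1 and Hhip. In the wider pathway the co-receptor Cdon was higher and the co-receptor Gas1 lower in MCD diet livers, both by more than 2-fold. For each, the diet with the lower signal was dim, so the size is uncertain.

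The promoters of the genes on which these results turn are printed first, for Hhip as the called member, for Ptch1 as the receptor, and for the co-receptors Cdon and Gas1. They run 5′ to 3′ from 250 bases before to 50 bases after the annotated start and come from RefSeq, build GRCm38.p6, where 7 of the 9 members matched, while Shh and Gli1 did not. The lines cover chr8:80057959-80058258 (minus strand) for Hhip, chr13:63565686-63565985 (minus strand) for Ptch1, chr9:35451826-35452125 (plus strand) for Cdon and chr13:60177486-60177785 (minus strand) for Gas1. Capitals mark matches on either strand to GGGTGG, the inner letters of the GLI consensus site.
Hhip: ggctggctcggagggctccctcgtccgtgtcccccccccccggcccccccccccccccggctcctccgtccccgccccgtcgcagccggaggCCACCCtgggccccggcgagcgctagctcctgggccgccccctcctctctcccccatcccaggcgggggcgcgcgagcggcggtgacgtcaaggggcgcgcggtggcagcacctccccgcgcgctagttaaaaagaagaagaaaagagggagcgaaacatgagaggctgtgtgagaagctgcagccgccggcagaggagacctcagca
Ptch1: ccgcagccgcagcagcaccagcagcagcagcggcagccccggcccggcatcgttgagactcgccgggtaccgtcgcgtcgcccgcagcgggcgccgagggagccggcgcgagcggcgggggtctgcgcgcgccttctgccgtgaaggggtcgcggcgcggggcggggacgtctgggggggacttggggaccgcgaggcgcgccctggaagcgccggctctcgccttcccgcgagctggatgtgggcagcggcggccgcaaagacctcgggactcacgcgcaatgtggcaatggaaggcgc
Cdon: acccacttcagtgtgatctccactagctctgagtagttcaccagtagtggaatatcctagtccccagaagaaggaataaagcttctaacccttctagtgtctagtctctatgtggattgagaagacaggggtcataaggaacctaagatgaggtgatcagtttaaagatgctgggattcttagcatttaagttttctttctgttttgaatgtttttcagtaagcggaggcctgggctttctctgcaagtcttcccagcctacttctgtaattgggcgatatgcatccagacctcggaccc
Gas1: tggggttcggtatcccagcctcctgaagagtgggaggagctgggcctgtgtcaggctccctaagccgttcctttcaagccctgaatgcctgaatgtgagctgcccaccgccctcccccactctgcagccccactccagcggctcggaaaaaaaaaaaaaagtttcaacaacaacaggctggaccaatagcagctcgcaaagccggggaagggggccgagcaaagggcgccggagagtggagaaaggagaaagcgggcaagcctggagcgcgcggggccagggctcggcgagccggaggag
The GLI consensus TGGGTGGTC, searched on both strands, was in 0 of the 7 member promoters and in 0.253% of all 32851 promoters of that length. Its inner letters GGGTGG, which any full match also holds, were in 6 of the 7 member promoters, those of Ihh, Dhh, Smo, Gli2, Gli3 and Hhip, and in 31.5% of all promoters. The Hhip promoter holds 1 such match, read on the opposite strand, whose first printed base lies at position -158 from the start. The member promoters are rich in G and C. Hhip has 73.7% G and C with 30 CpG pairs and Ptch1 has 76.3% with 47, beside medians of 52.7% and 7 over all promoters, whereas the Cdon window has 44.7% with 3. These are descriptions of letters in these windows and do not show binding.

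Hhip encodes a membrane glycoprotein that binds Hedgehog ligands and keeps them from Ptch1. Its log2 signal was 2.41 and 2.59 in MCD diet livers, against 3.64 and 3.10 in normal diet livers. Both MCD diet arrays lay below both normal diet arrays, and the normal diet arrays stood farther apart from each other than the MCD diet arrays. The difference was -0.87 ± 0.20 on the log2 scale (MCD diet minus normal diet; ± is the standard error throughout, n = 2 arrays per diet; 95% interval -1.36 to -0.39), which is 1.83-fold lower (limma adjusted p = 0.0472). MCD diet signals of Hhip were dim, so the size of the fall is uncertain. In bulk liver RNA, fewer cells that express a gene and less RNA per cell cannot be told apart. The call lies close to the threshold and ended without normal diet replicate 1 (-0.60, limma adjusted p = 0.124), without MCD diet replicate 1 (-0.78, adjusted p = 0.192) and without MCD diet replicate 2 (-0.96, adjusted p = 0.107). It also ended with a pseudocount of 8 on the linear scale, where the difference shrank to -0.43, and under a rule that asked for a 2-fold change beside an unadjusted p below 0.05, which 5.21% of all genes met and 0 members. The adjusted p with a replicate block was 0.0698, while the sign was the same in all 13 alternatives that kept Hhip.

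**Figure D1:**
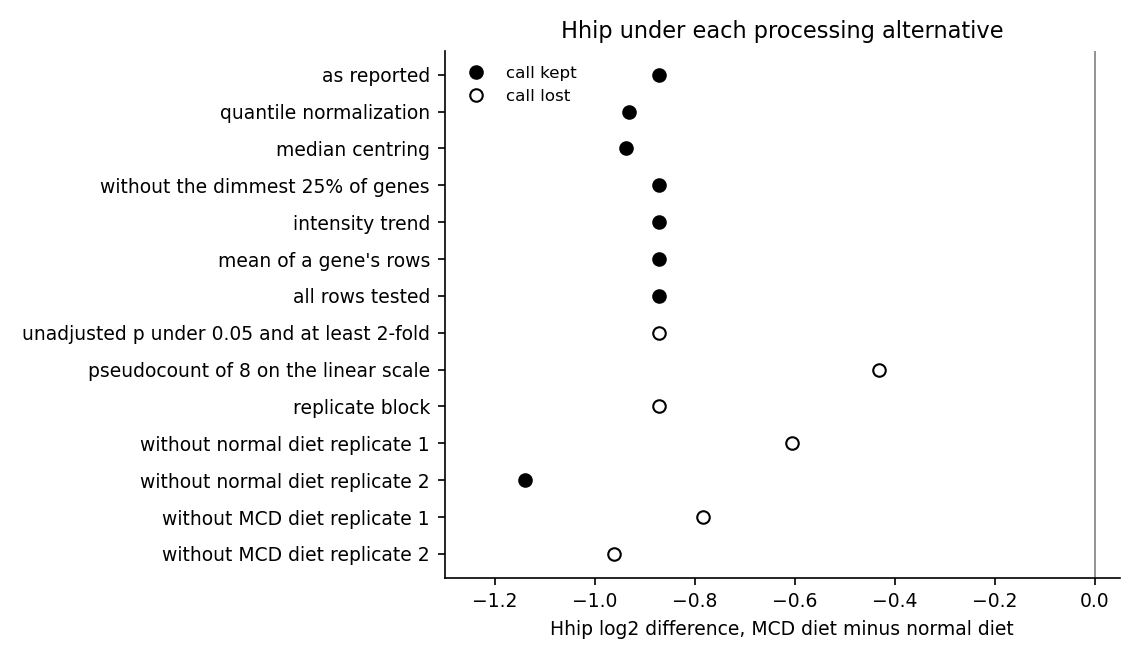
Log2 difference of Hhip, MCD diet minus normal diet (horizontal axis), as reported and under each of 13 alternatives (vertical axis), filled where the call was kept and open where it was lost. The values run from -1.14 to -0.43 and the call was lost in 6 of the 13.

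Markers of other cell types moved in the same livers. Of 10 endothelial markers, all above the median signal, 3 fell and 0 rose (30.0% called). Mean log2 signals over the list were 5.36 and 5.37 in MCD diet livers, against 5.83 and 5.71 in normal diet livers. Oit3 and the scavenger receptor Stab2, both markers of sinusoidal endothelium, fell by 1.22 ± 0.13 and 0.82 ± 0.15. Of 10 hepatic stellate cell markers, all above the median signal, 1 rose and 1 fell (20.0% called). The median difference of the list was 0.43, and 7 markers had an unadjusted limma p under 0.05, all of them higher except Ecm1. The share of all genes at that unadjusted threshold was not counted, so the 7 cannot be set against it. The receptor Pdgfrb rose by 1.38 ± 0.12 and the matrix protein Ecm1 fell by 1.13 ± 0.17, with list means of 5.31 and 5.37 in MCD diet livers, against 5.18 and 4.93 in normal diet livers. Whether cell composition has a part in the Hhip difference was not tested.

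The ligand genes did not pass the test. Shh, the ligand most often studied in injured liver, read 2.27 and 2.40 in MCD diet livers, against 2.43 and 2.35 in normal diet livers. The groups overlapped, and the difference was -0.06 ± 0.12 (95% interval -0.36 to 0.25). A second row, annotated to Shh and to 9530036O11Rik, stayed out of the test because it carries 2 symbols. RefSeq lists the second symbol as a synonym of Shh. That row read 2.50 and 2.17 in MCD diet livers, against 2.62 and 2.70 in normal diet livers, a difference of -0.32. Both MCD diet values of this row lay below both normal diet values, unlike the row that names Shh alone.

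Ihh, the ligand that patterns growing cartilage and the gut wall, read 3.60 and 3.23 in MCD diet livers, against 3.21 and 3.21 in normal diet livers. The groups did not overlap, but the second MCD diet array lay just above the normal diet pair, and the difference of 0.20 ± 0.16 did not pass (limma adjusted p = 0.503). Dhh, the ligand of testis and peripheral nerve, read 2.43 and 2.43 in MCD diet livers, against 2.27 and 2.66 in normal diet livers. The MCD diet arrays of Dhh fell between the normal diet arrays, at a difference of -0.03 ± 0.16.

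**Figure D2:**
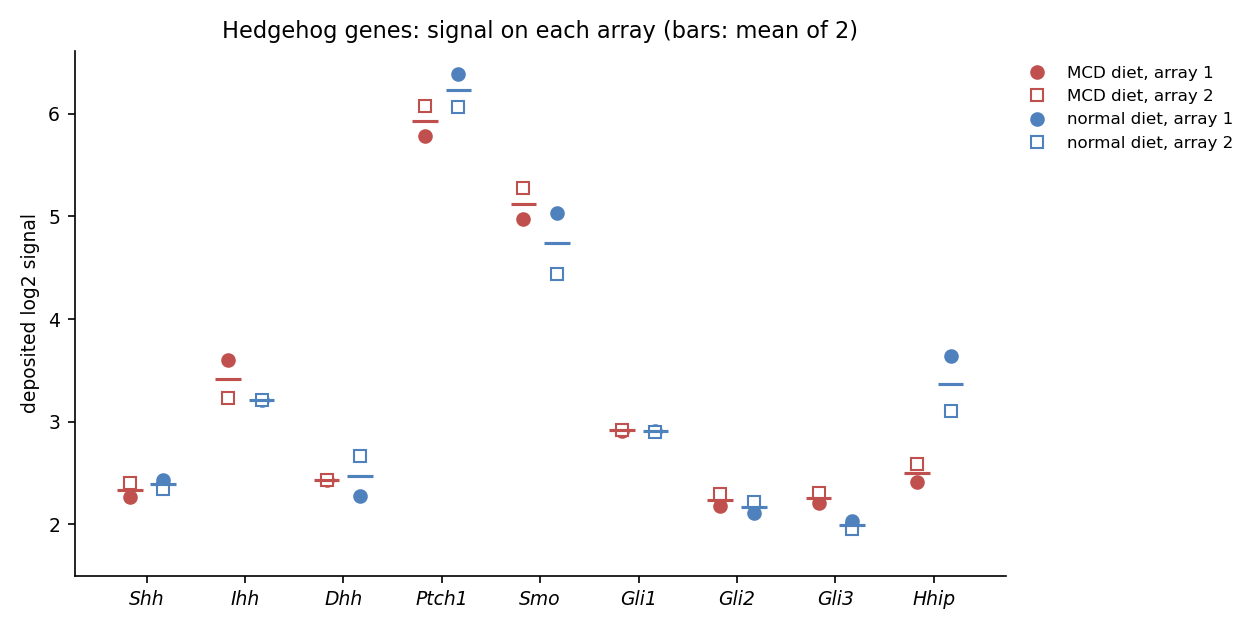
Deposited log2 signal (vertical axis) of the 9 Hedgehog genes (horizontal axis) on each array, MCD diet in red left of normal diet in blue, with filled circles for array 1, open squares for array 2 and a bar at the mean of 2 arrays. Hhip alone passed the test, with 2.41 and 2.59 in MCD diet livers, against 3.64 and 3.10 in normal diet livers.

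The receptors were the members farthest from the dim end. Ptch1, which binds the ligands and is raised by GLI activity in many tissues, read 5.78 and 6.08 in MCD diet livers, against 6.39 and 6.07 in normal diet livers. The second array of each diet gave nearly the same value, so the groups overlapped. Its difference of -0.30 ± 0.17 (95% interval -0.72 to 0.12) did not pass the test (limma adjusted p = 0.360). Smo, the signal transducer that Ptch1 restrains, read 4.97 and 5.28 in MCD diet livers, against 5.03 and 4.44 in normal diet livers. The first MCD diet array lay between the normal diet arrays. At 0.39 ± 0.22 Smo had the largest standard error of the 9 (95% interval -0.16 to 0.93), and the difference did not pass (limma adjusted p = 0.364).

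The transcription factors were dim, with Gli1 only narrowly below the median signal of all genes, and did not pass the test. Gli1, an activator whose own transcription follows pathway activity, read 2.91 and 2.92 in MCD diet livers, against 2.91 and 2.90 in normal diet livers. The 4 arrays were almost equal, with a difference of 0.01 ± 0.12 (95% interval -0.27 to 0.29, or 0.828-fold to 1.23-fold), where the standard error comes from the spread pooled across genes. Gli2, the main activator of the family, read 2.18 and 2.30 in MCD diet livers, against 2.11 and 2.22 in normal diet livers, a difference of 0.07 ± 0.12 with overlapping groups. Gli3, which acts mostly as a repressor when no ligand is present, read 2.21 and 2.30 in MCD diet livers, against 2.03 and 1.96 in normal diet livers. Both MCD diet arrays of Gli3 were higher, but the difference of 0.26 ± 0.12 did not pass (limma adjusted p = 0.261).

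For the 8 members that did not pass, the 95% interval of the difference held no change in 8 and lay inside a 2-fold change either way in 8. The outermost bounds were 0.607-fold for Ptch1 and 1.91-fold for Smo. These intervals cover signal on the array, are not adjusted for the number of genes, and understate ratios of transcripts where a row is dim, so a larger change in the RNA behind a dim row such as that of Shh or Gli1 may not have been detectable.

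**Figure D3:**
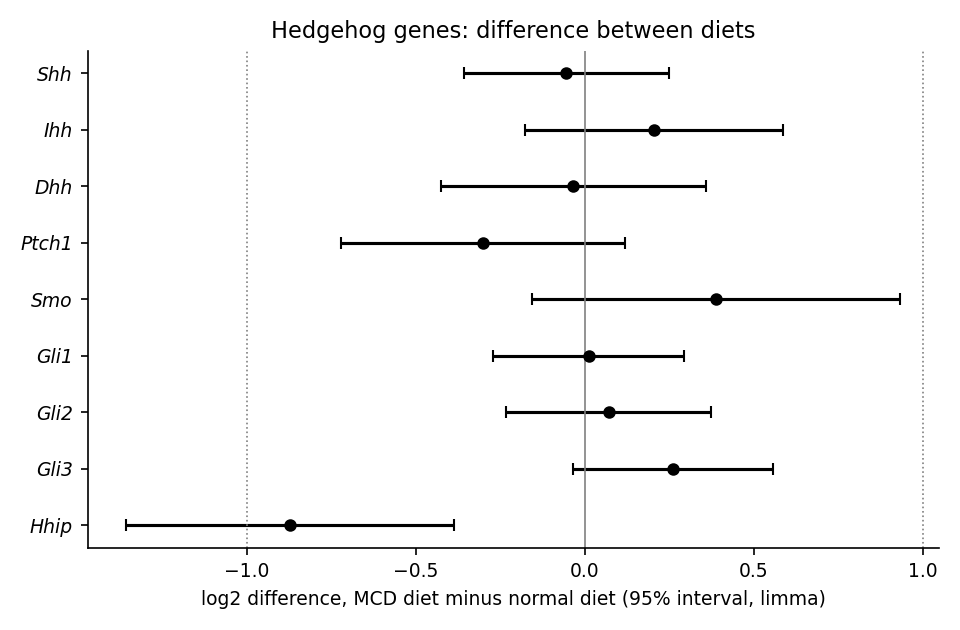
Log2 difference in signal, MCD diet minus normal diet (horizontal axis), of the 9 Hedgehog genes (vertical axis), with points for the estimate and bars for the 95% interval from limma, and dotted lines at a 2-fold change. The interval of Hhip runs from -1.36 to -0.39 and the intervals of the other 8 genes include 0.

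Outside the 9 members, 73 of 80 listed genes of the pathway were tested and 11 rose and 2 fell (17.8% called, beside 9.98% of all genes). Of these 73, 56 lay above the median signal, where calls are more common. The other 7 were not analysed here. Earlier results of these data were known when these lists and those of cell markers were drawn up. The shares called within them are therefore descriptive only. Genes that process and release ligand gave 0 limma calls of 7, with a median difference of 0.10. At an unadjusted p under 0.05 there were 2, Hhatl and Scube1, both higher. The share of all genes at that unadjusted threshold was not counted. Hhat, which attaches palmitate to the ligands, differed by -0.11 ± 0.16, Disp1, which releases lipid-bearing ligand from the cell, by 0.13 ± 0.13, and Scube2, a secreted partner of that release, by 0.10 ± 0.15. Scube1, chosen after its values were seen, came nearest to the threshold, with 4.53 and 3.89 in MCD diet livers, against 3.28 and 3.49 in normal diet livers (0.83 ± 0.23, limma adjusted p = 0.077).

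Of 5 tested receptors and co-receptors outside the members, 1 rose and 1 fell (40.0% called, beside 9.98% of all genes), and 3 did not pass. Cdon, a cell surface protein that presents ligand to Ptch1, read 3.69 and 4.07 in MCD diet livers, against 2.69 and 2.50 in normal diet livers. Both MCD diet arrays lay well above the normal diet pair, and Cdon rose by 1.28 ± 0.17 (2.43-fold, limma adjusted p = 0.00821). Its normal diet signal was dim, so the size of the rise is uncertain. Gas1, a membrane-anchored co-receptor, read 2.34 and 2.34 in MCD diet livers, against 3.47 and 3.67 in normal diet livers. The fall of 1.23 ± 0.13 was 2.34-fold (limma adjusted p = 0.00405), and since the MCD diet signal was dim its size is uncertain. Boc, the relative of Cdon, read 2.77 and 3.12 in MCD diet livers, against 2.41 and 2.45 in normal diet livers. The groups did not overlap, yet the difference of 0.52 ± 0.15 did not pass (limma adjusted p = 0.096). The calls of Cdon and Gas1 held under every alternative that tested them, which for Gas1 leaves out the removal of the dimmest 50% of genes. A pseudocount of 8, which damps dim rows, shrank them to 0.69 for Cdon and -0.61 for Gas1.

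Of 12 myofibroblast and portal fibroblast markers 5 rose and 1 fell, with list means of 4.15 and 4.50 in MCD diet livers, against 3.64 and 3.41 in normal diet livers. The growth factor receptor Pdgfra rose by 2.74 ± 0.12, the matrix crosslinking enzyme Loxl1 by 1.60 ± 0.12 and the smooth muscle actin gene Acta2 by 1.35 ± 0.31. The call of Acta2 was lost under 7 alternatives, among them leaving out any array other than MCD diet replicate 1. The marker that fell was Postn (-1.11 ± 0.24, limma adjusted p = 0.0389). Of 7 tested cholangiocyte markers 5 rose and 0 fell (71.4% called, beside 9.98% of all genes). The list means were 3.47 and 3.42 in MCD diet livers, against 2.53 and 2.45 in normal diet livers. The adhesion molecule Epcam rose by 2.34 ± 0.19 and Prom1 by 1.60 ± 0.21. The part of these cells in the Cdon and Gas1 differences was not tested. Of 10 macrophage and Kupffer cell markers 5 rose and 2 fell (70.0% called), led by Gpnmb (7.33 ± 0.20). Those that fell were Clec4f (-1.66 ± 0.19) and Timd4 (-0.89 ± 0.16). Of 9 lymphocyte markers 0 passed the limma test (4 at an unadjusted p under 0.05). Hepatocyte markers gave 2 lower of 10 (20.0% called), Serpina1a (fell by 1.06 ± 0.23) and Apoa1 (fell by 0.50 ± 0.12). Serpina1a has near-identical copies that may share its signal.

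**Figure D4:**
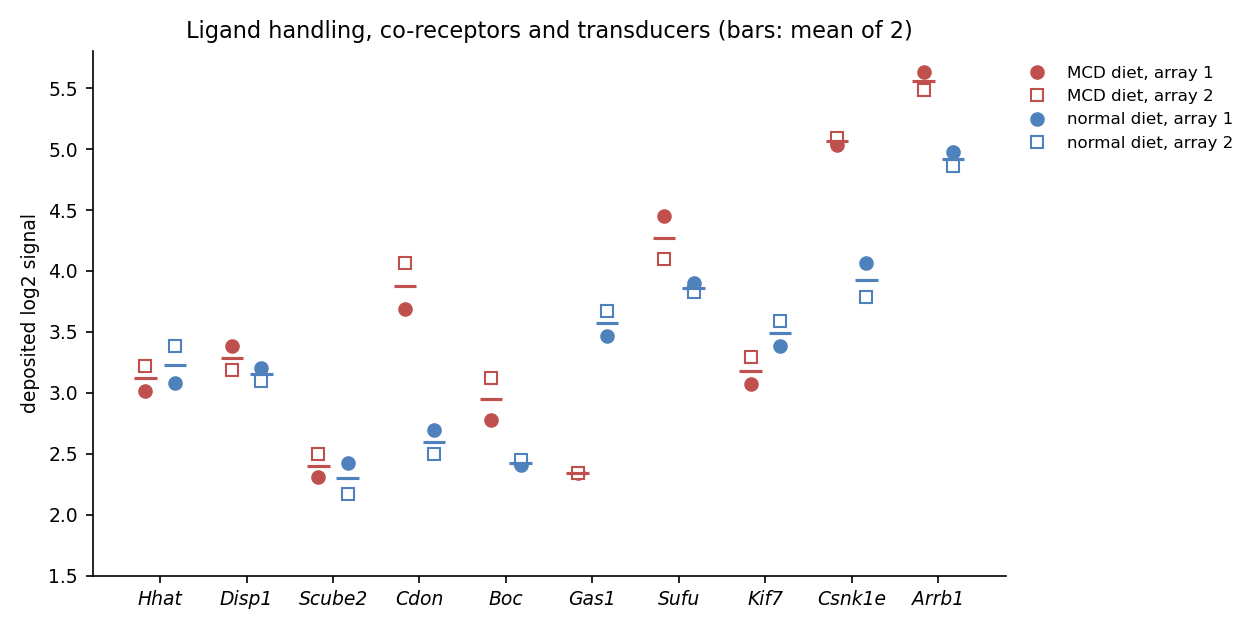
Deposited log2 signal (vertical axis) on each array for genes of ligand handling, co-receptors and transducers (horizontal axis), drawn with MCD diet in red left of normal diet in blue and a bar at the mean of 2 arrays. Cdon, Csnk1e and Arrb1 were higher and Gas1 lower in MCD diet livers at an adjusted p under 0.05, while Boc, Sufu and Kif7 did not pass.

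Of 24 tested genes that carry the signal from Smo to GLI or process GLI proteins, 2 rose and 0 fell (8.33% called). That share was below the 9.98% of all genes and the 18.1% of genes at or above the median signal, where 20 of the 24 lie. Whether it is lower than among genes of like signal was not tested. Csnk1e, a casein kinase of the family that phosphorylates Smo and the GLI proteins, read 5.03 and 5.09 in MCD diet livers, against 4.07 and 3.78 in normal diet livers, and rose by 1.14 ± 0.14 (limma adjusted p = 0.00689). Arrb1, a beta-arrestin that takes part in Smo trafficking, rose by 0.64 ± 0.13, a call lost without any one of the 4 arrays (limma adjusted p of 0.0315 with all 4 and up to 0.146 over the alternatives). Both kinds of protein also serve other receptors. Sufu, which binds GLI proteins in the cytoplasm and restrains them, read 4.45 and 4.09 in MCD diet livers, against 3.90 and 3.83 in normal diet livers (0.41 ± 0.16, limma adjusted p = 0.178). Kif7, the ciliary kinesin that organises GLI and Sufu at the cilium tip, read 3.07 and 3.29 in MCD diet livers, against 3.38 and 3.59 in normal diet livers (-0.31 ± 0.15, limma adjusted p = 0.271). The diets did not overlap in the brightest row of Sufu or Kif7, but neither passed. Both genes have further rows. The mean of a gene's rows gave smaller differences, 0.15 for Sufu (limma adjusted p = 0.558) and -0.16 for Kif7 (limma adjusted p = 0.572).

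Of 23 tested genes of the primary cilium, the organelle in which Smo acts, 5 rose and 1 fell, with a median difference of 0.32. That is 26.1% called, beside 9.98% of all genes and 18.1% of the brightest 50%, in which 22 of the 23 lie. Ofd1, a protein of the centriole from which the cilium grows, rose by 1.10 ± 0.12 (limma adjusted p = 0.00405) and its call held in all 14 alternatives, at 0.71 with the pseudocount of 8. Ift57 and Wdr35, subunits of the transport trains of the cilium, rose by 0.86 ± 0.19 and 0.66 ± 0.12. Cep290, of the gate at the cilium base, rose by 0.81 ± 0.14 and Bbs7, a subunit of the BBSome cargo adaptor, by 0.59 ± 0.13. Fuz, needed to assemble the cilium, fell by 0.76 ± 0.16. Of the genes in this list, Ift57 lost its call on leaving out any array other than MCD diet replicate 1, Cep290 on leaving out any other than normal diet replicate 2, Fuz on leaving out any other than normal diet replicate 1, and Wdr35 and Bbs7 on leaving out any one. Quantile normalization ended the calls of Wdr35 (limma adjusted p = 0.0587) and Bbs7 (adjusted p = 0.112), and Bbs7 also lost its call under median centring, an intensity trend and a replicate block (adjusted p of 0.0582 to 0.0616). The pseudocount of 8 ended those of Ift57 (0.41, limma adjusted p = 0.125) and Fuz (adjusted p = 0.0802).

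Of 14 tested genes reported as Hedgehog targets in other tissues, 3 rose and 0 fell (21.4%, beside 9.98% of all genes), with a median of 0.43. Ccnd1, the cell cycle gene of cyclin D1, read 8.20 and 8.30 in MCD diet livers, against 5.62 and 5.48 in normal diet livers, and rose by 2.70 ± 0.13 (limma adjusted p = 0.000357). Sox9, a transcription factor of bile duct cells, read 6.17 and 6.06 in MCD diet livers, against 4.29 and 3.93 in normal diet livers, and rose by 2.003 ± 0.16 (limma adjusted p = 0.00174). Rab34, a GTPase of early cilium formation, rose by 0.82 ± 0.16, a call lost on leaving out any array other than MCD diet replicate 1 and with the pseudocount of 8 (0.44, limma adjusted p = 0.0781). Foxf1, a factor of liver mesenchyme, differed by 0.50 ± 0.18 and did not pass (limma adjusted p = 0.159).

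**Figure D5:**
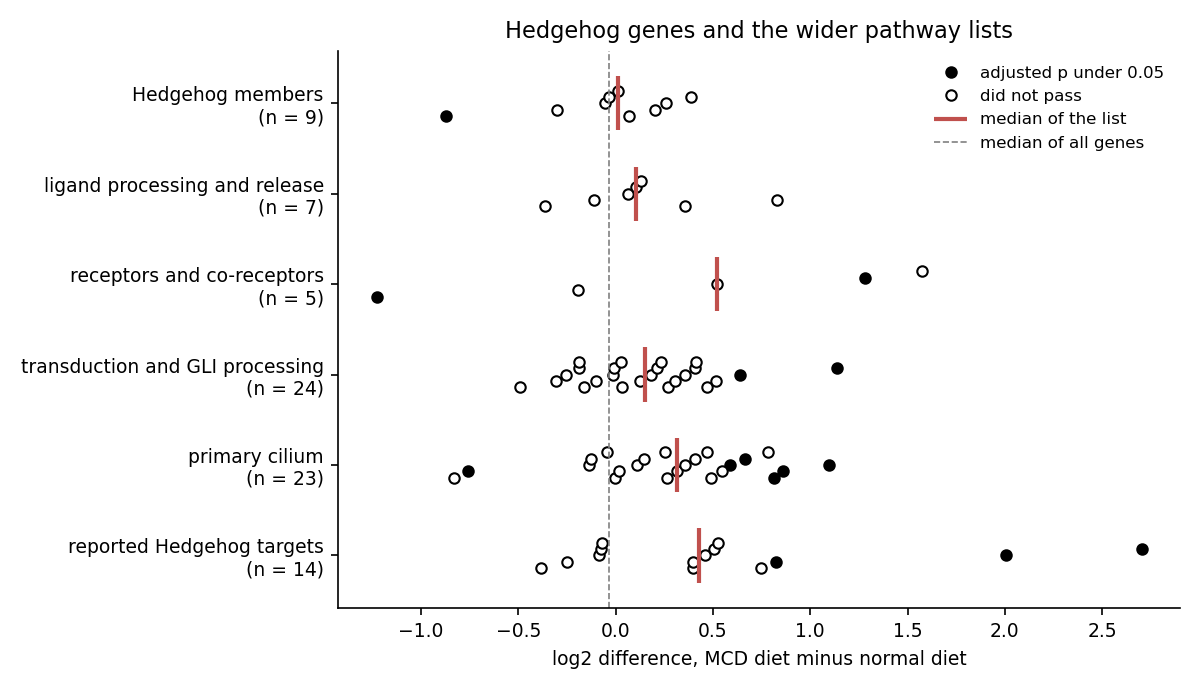
Log2 difference, MCD diet minus normal diet (horizontal axis), of each tested gene in the Hedgehog gene set and the 5 wider pathway lists (vertical axis), filled where the adjusted p was under 0.05, with red bars at list medians and a dashed line at the median of all genes. The 9 Hedgehog genes have a median of 0.01 with Hhip at -0.87, and Ccnd1 and Sox9 lie at 2.702 and 2.003.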

How the data were processed

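RNA of 4 liver samples was measured on Mouse Gene 2.1 ST arrays. Per the submitters' processing notes, Transcriptome Analysis Console made the deposited values. Its version and its steps of summarization, background correction and normalization were not given in the sources used here. They were read as the authors' log2 signals. No source names the base; log2 was taken from their range, and fold changes depend on it. Of 34472 rows, 23521 named 1 gene, 1814 several and 9137 no gene; the brightest row per gene gave 22180 genes. The values were used without further normalization, filter or pseudocount. Diets, taken from the sample titles, were compared with limma 3.58.1 in R 4.3.3 (two-sided, Benjamini-Hochberg over all genes, threshold 0.05), tested on simulated data. Precision is limited by 2 arrays per diet. The members and lists were chosen with earlier results of these data known. Named were all members, up to 6 called genes per pathway list, 12 fixed pathway genes and up to 3 called markers per cell type list. Postn, Clec4f and Timd4, which fell in lists where more markers rose, were named beside these. Alternatives were quantile normalization, median centring, leaving out the dimmest 25% or 50%, an intensity trend, the mean of a gene's rows, all rows, a pseudocount of 8, an unadjusted threshold with 2-fold change, a replicate block and leaving out each array.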

Additional observations from a re-analysis of the deposited data

How the results depend on the processing

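The direction of Hhip was the same in all 13 alternatives that tested it, and 0 of the 8 members that did not pass were called under any alternative. The number of members called was 1, and it was 0 under the unadjusted threshold with 2-fold change, the pseudocount of 8, the replicate block and the removal of the dimmest 50% of genes, where only 3 members were tested. Leaving out 1 array at a time gave 0 to 1. All genes called numbered 2214, against 1155 under the unadjusted threshold and 1050 to 1493 without 1 array. Small differences changed sign under some settings: quantile normalization turned Shh to 0.0017, Dhh to 0.0079 and Gli1 to -0.0281, median centring turned Gli1 to -0.0555, and leaving out 1 array gave -0.12 to 0.0088 for Shh, -0.23 to 0.16 for Dhh, -0.26 to 0.0358 for Hhat and -0.026 to 0.23 for Scube2. The sign of these 5 genes is therefore not settled. Where the 95% interval includes 0, as for the other members that did not pass, a sign kept in every setting is not settled either. Same-numbered arrays deviated with a correlation of 0.05 across genes, and the numbers do not pair the samples by any label. With the replicate block 1950 genes were called, and Hhip had a limma adjusted p of 0.0698. Of the 30 called genes named by rule, without Postn, Clec4f and Timd4, 14 kept their call in every alternative that tested them and 0 turned sign. Among the cell type markers, on leaving out 1 array Stab2 lost its call for any but normal diet replicate 2, Ecm1 for MCD diet replicate 1, Serpina1a for any but MCD diet replicate 2, Apoa1 for any of the 4, and Cftr and Kdr for any but MCD diet replicate 2. The pseudocount of 8 also ended the calls of Prom1, Cftr, Serpina1a (limma adjusted p = 0.101) and Stab2 (adjusted p = 0.0522). The replicate block ended those of Serpina1a (adjusted p = 0.0501) and Apoa1 (adjusted p = 0.0799), and Apoa1 also lost its call under quantile normalization (adjusted p = 0.112), without the dimmest 25% of genes (adjusted p = 0.0503) and with all rows tested (adjusted p = 0.05). Signal over background was not analysed, which limits statements on dim rows most.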

Other observations

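Some genes of the wider pathway lists differed between the MCD diet livers themselves; the 3 named here were chosen after their values were seen. Gpc3, a surface proteoglycan that binds Hedgehog ligands, read 5.03 and 3.07 in MCD diet livers, against 2.44 and 2.51 in normal diet livers. Its mean difference of 1.58 was larger than that of Cdon, but the MCD diet arrays lay 1.95 apart and the difference did not pass (limma adjusted p = 0.161). Ift27, a subunit of the ciliary transport trains, read 4.12 and 2.86 in MCD diet livers, against 4.19 and 4.45 in normal diet livers, so the low value stood on 1 array (limma adjusted p = 0.26). Kif3a, a motor subunit of the same transport, read 5.02 and 4.28 in MCD diet livers, against 3.85 and 3.88 in normal diet livers (limma adjusted p = 0.109).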
